A study of Mus musculus with 8 samples.

Results

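Mature miRNAs were compared between PCBP2-silenced and control hepatocytes inside the cells, whether or not the same miRNAs were also seen in extracellular vesicles (EVs). The comparison took all 4 cell libraries of the 8 in the series. They came from 3A cells, a non-tumorigenic murine hepatocyte line that had been infected with a pSUPER retro puro retroviral vector and kept in puromycin. In shCTR cells the vector carried a scramble shRNA, and in shPCBP2 cells an shRNA against PCBP2. The paper states that the shPCBP2 line was newly made, while the shCTR line already existed. An effect of the silencing therefore cannot be told apart from a difference between separately derived lines. Each group had 2 biological replicates, and nothing in the sources used here said whether a line was 1 clone. All cells were grown on collagen I in RPMI with serum, EGF, IGF II and insulin. PCBP2 itself was not measured by these libraries. The paper measured its silencing in shPCBP2 against shCTR hepatocytes separately, by RT-qPCR and western blot. Of the 1978 mouse miRNAs in the table, 772 had at least 1 read in a cell library, 372 had reads in all 4, and 451 had a mean of 10 or more counts over the 4 libraries and were tested. Of those tested, 231 had no EV read.

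PCBP2 is a poly(C)-binding protein that contacts single-stranded, cytosine-rich RNA through its KH domains, and it is known for roles in mRNA stability and translation. It has also been reported to associate with Dicer, the nuclease that cuts miRNA precursors. A miRNA hairpin yields a duplex whose 5p and 3p arms can each be loaded into an Argonaute protein, and bases 2 to 8 of the loaded arm, the seed, pair with target mRNAs. The cell level of a miRNA therefore reflects transcription of its host transcript, cutting of the hairpin, the choice of arm, decay and export, and these steps cannot be told apart in the counts.

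Mature sequences were found in RefSeq (GRCm38.p6) for 399 of the 451 tested miRNAs. The sequences of the 11 miRNAs that were lower in shPCBP2 cells relative to the spike-in are shown first, 5′ to 3′ with the seed in capitals. No seed occurs in more than 1 of them.
miR-335-5p: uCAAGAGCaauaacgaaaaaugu
miR-129-2-3p: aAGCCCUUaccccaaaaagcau
miR-290a-5p: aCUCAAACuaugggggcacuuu
miR-350-3p: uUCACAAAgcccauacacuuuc
miR-455-3p: gCAGUCCAcgggcauauacac
miR-3102-3p: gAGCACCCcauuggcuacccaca
miR-10b-5p: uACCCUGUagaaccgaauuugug
miR-322-3p: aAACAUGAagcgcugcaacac
miR-350-5p: aAAGUGCAugcgcuuuggg
miR-149-5p: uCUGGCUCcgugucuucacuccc
miR-423-3p: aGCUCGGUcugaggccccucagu

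The miRNAs that took a larger share of the mouse reads in shPCBP2 cells are shown for comparison, again with the seed in capitals. The sequence of miR-378a-3p, which belongs with them, is not shown.
miR-2137: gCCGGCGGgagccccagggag
miR-130b-3p: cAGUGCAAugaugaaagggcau
miR-200a-3p: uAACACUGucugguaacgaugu
miR-27a-5p: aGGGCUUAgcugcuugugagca
miR-107-3p: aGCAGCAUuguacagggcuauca
miR-24-3p: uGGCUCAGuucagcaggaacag

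A nematode miRNA, cel-miR-39-3p, had been added as a spike-in and took more reads than all mouse miRNAs together in every library. Mouse miRNAs received 12732173 and 11698300 reads in shCTR replicates 1 and 2, and 8745848 and 12634729 in shPCBP2 replicates 1 and 2. Per 1000 spike-in reads these were 714 and 743 mouse reads in shCTR against 496 and 709 in shPCBP2. Only shPCBP2 replicate 1 stood well below the others. The means were 729 ± 20.5 and 602 ± 151 (SD, n = 2 each), a log2 difference of -0.30 that did not pass an exact two-sided permutation test (p = 0.33, the smallest that 2 against 2 libraries allow). Without shPCBP2 replicate 1 the difference was -0.04, and without replicate 2 it was -0.56. The libraries also differed at the low end, since 11 miRNAs had 1 to 9 reads in shCTR replicate 2 but 86, 141 and 139 did in the other libraries, and its part in the results for scarce miRNAs was not tested.

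**Figure D1:**
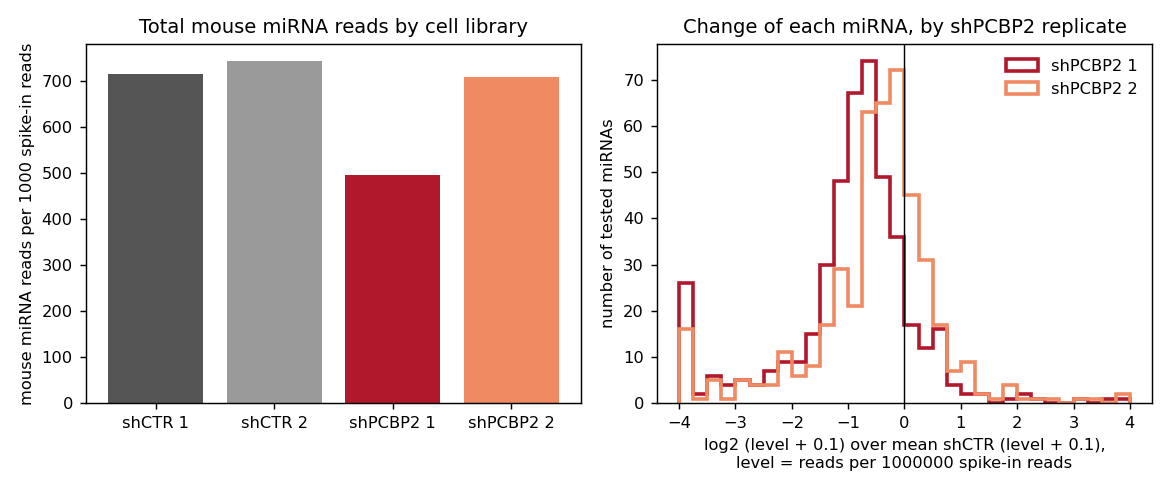
Left, bars give mouse miRNA reads per 1000 spike-in reads in each of the 4 cell libraries, and shPCBP2 replicate 1 is the lowest at 496. Right, histograms over the 451 tested miRNAs of the log2 ratio of each shPCBP2 replicate to the mean of both shCTR replicates (0.1 reads per 1000000 spike-in reads added to each level, ratios beyond the ends of the axis counted in the last bins), with replicate 1 lying further to the left than replicate 2.

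Every miRNA was tested on 2 scales. On the spike-in scale a level is in RPMS, the number of reads per 1000000 spike-in reads, and a change includes any shift of all miRNAs together. On the total scale a level is a share of all mouse miRNA reads, so a general shift is removed. The median log2 change (shPCBP2 minus shCTR) over the 451 tested miRNAs was -0.52 on the spike-in scale, with 364 negative and 87 positive, and -0.24 on the total scale, with 308 negative and 143 positive. TMM and median-of-ratios scaling, which set the typical miRNA near no change, left medians of -0.05 and -0.01. Against shCTR, the spike-in median was -0.79 for shPCBP2 replicate 1 alone and -0.37 for replicate 2 alone.

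On the spike-in scale, 11 miRNAs fell in shPCBP2 cells and 0 rose at an adjusted p under 0.05 (quasi-likelihood test of edgeR, p-values adjusted by the Benjamini-Hochberg method), which is 2.44% and 0.0% of those tested. At an unadjusted p under 0.05, 96 were lower and 2 higher, and DESeq2 called 41 lower and 2 higher among 372 with an adjusted p (11.0% and 0.538%). On the total scale, edgeR called 34 lower (7.54%) and 7 higher (1.55%). With TMM scaling the calls were 17 lower (3.77%) and 13 higher (2.88%), and with median-of-ratios scaling 16 lower (3.55%) and 15 higher (3.33%), so the balance of directions depended on the scale. The lists overlapped in their lower part. Of the 11 miRNAs lower on the spike-in scale, 10 were also lower on the total scale, and 7 were lower on all 4 scales, namely miR-10b-5p, miR-129-2-3p, miR-149-5p, miR-322-3p, miR-335-5p, miR-350-3p and miR-455-3p. The number lower relative to the spike-in was 97 without shPCBP2 replicate 2 and 6 without shCTR replicate 2. The number lower on the total scale was 17 without shPCBP2 replicate 2, and 72 and 67 without shCTR replicate 1 or 2. Of the 41 calls in either direction on that scale, 18 held with each library left out in turn, and 24 and 20 held without shPCBP2 replicate 1 or 2.

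**Figure D2:**
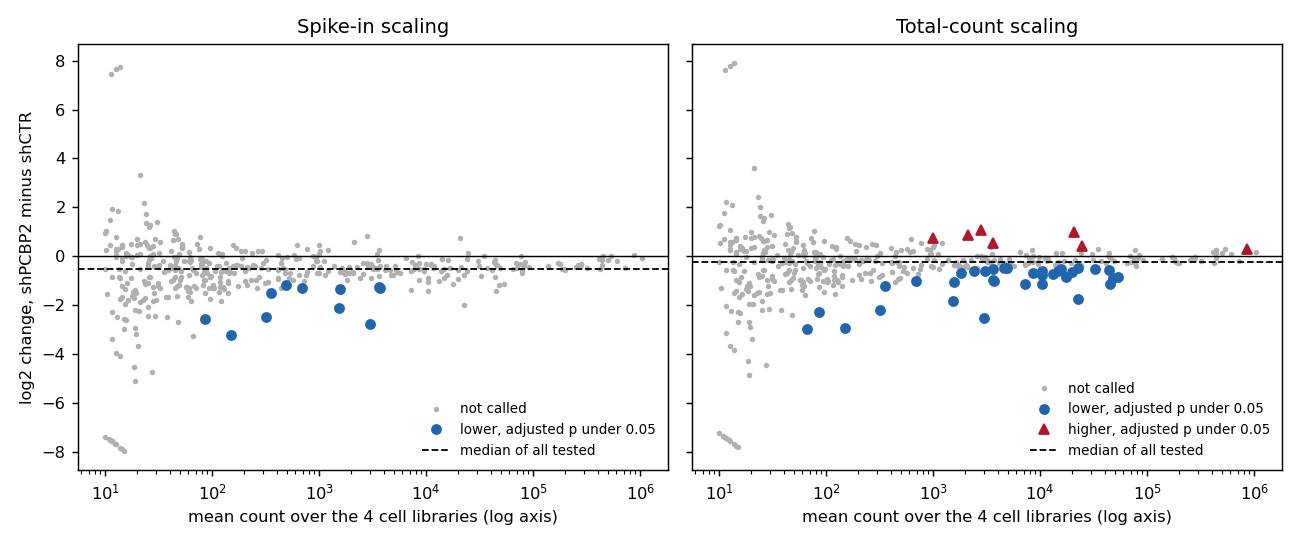
Each point is 1 of the 451 tested miRNAs, with its mean count over the 4 cell libraries on a log axis and its log2 change (shPCBP2 minus shCTR) on the spike-in scale (left) and the total scale (right). The dashed median lies at -0.52 and -0.24, the 11 and 34 lower calls (blue) lie below it, and the 7 higher calls (red) appear on the total scale.

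The miRNA with the clearest fall was miR-129-2-3p, encoded on chr2:94241376-94241397 (minus strand, GRCm38.p6) in an intron of the long noncoding RNA Mir670hg. It stood at 326 and 294 RPMS in shCTR against 40.9 and 49.0 in shPCBP2. The groups were far apart, and both shPCBP2 replicates lay at a similar level. The fall was 6.90-fold on the spike-in scale (log2 -2.79 ± 0.23 SE, adjusted p = 0.0027) and 5.69-fold on the total scale (adjusted p = 1.85e-05). The opposite arm, miR-129-5p, is also made from a hairpin on chromosome 6. It had 1886 and 2435 RPMS in shCTR against 441 and 628 in shPCBP2, again without overlap. Its fall passed the test on the total scale (3.33-fold, adjusted p = 1.85e-05), while on the spike-in scale its log2 change of -2.01 had an adjusted p of 0.083. miR-129-1-3p, specific to the hairpin on chromosome 6, was scarce, with 20 and 51 counts in shCTR against 3 and 0 in shPCBP2. It passed the filter on low counts only through shCTR, the group where it is high, so it had to differ.

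miR-455-3p, from an intron of the collagen gene Col27a1 on chr4:63256904-63256924, also changed strongly. Its levels were 143 and 149 RPMS in shCTR against 31.1 and 36.7 in shPCBP2, a 4.29-fold fall (log2 -2.10 ± 0.20 SE, adjusted p = 0.0030). miR-129-2-3p and miR-455-3p were under the adjusted threshold in 19 of 19 other settings, and none of the other called miRNAs was.

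miR-335-5p lies in an intron of the imprinted gene Mest on chr6:30741314-30741336. It dropped from 12.4 and 20.0 RPMS in shCTR to 1.64 and 1.80 in shPCBP2, the largest fold among the 11 (9.24-fold, log2 -3.21 ± 0.46 SE, adjusted p = 0.011). Its other arm, miR-335-3p, had 47 and 27 counts in shCTR against 0 and 2 in shPCBP2. This is at least 12.9-fold lower when each shPCBP2 library is set to 3 counts, although its own test did not pass (adjusted p = 0.20). miR-335-3p passed the filter on low counts only through shCTR, the group where it is high, so it had to differ. Both arms of miR-350, from an intron of the centrosomal gene Cep170 on chromosome 1, were lower. miR-350-3p stood at 29.8 and 34.3 in shCTR against 4.02 and 7.46 in shPCBP2 (5.54-fold, adjusted p = 0.0081), and miR-350-5p at 57.4 and 57.5 against 19.1 and 28.2 (2.43-fold, adjusted p = 0.031). For none of these arms did the groups overlap.

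Other falls on the spike-in scale were between 2.26-fold and 5.89-fold. miR-10b-5p, which lies within the HoxD cluster in introns of Hoxd3 and Hoxd4, had 129 and 132 RPMS in shCTR against 47.5 and 56.9 in shPCBP2 (2.50-fold, adjusted p = 0.017). miR-149-5p, in an intron of the glypican gene Gpc1, went from 288 and 310 to 116 and 136 (2.37-fold, adjusted p = 0.031). miR-322-3p, from a cluster on the X chromosome described below, went from 308 and 304 to 100 and 149 (2.45-fold, adjusted p = 0.036). These 3 miRNAs, with miR-129-2-3p and miR-455-3p, kept an adjusted p under 0.05 when each library was left out in turn.

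The remaining miRNAs of the 11 depended more on single libraries. miR-290a-5p, of a cluster known from embryonic stem cells, had 158 and 133 counts in shCTR against 21 and 31 in shPCBP2 (5.89-fold, adjusted p = 0.031). miR-3102-3p, which overlaps an exon of Arhgef17, had 560 and 474 counts against 178 and 210 (2.82-fold, adjusted p = 0.024), and miR-423-3p, in an intron of Nsrp1, had 706 and 641 against 321 and 309 (2.26-fold, adjusted p = 0.031). The fall of miR-423-3p did not pass on the total scale (adjusted p = 0.081). On the spike-in scale miR-290a-5p and miR-423-3p missed the threshold whichever library was left out, with adjusted p up to 0.71 and 0.51. miR-335-5p, miR-350-5p and miR-3102-3p missed it without shCTR replicate 1, shCTR replicate 2 or shPCBP2 replicate 1 (adjusted p up to 0.29, 0.26 and 0.51), and miR-350-3p without shCTR replicate 2 or shPCBP2 replicate 1 (up to 0.064). Every one of these log2 changes stayed negative.

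**Figure D3:**
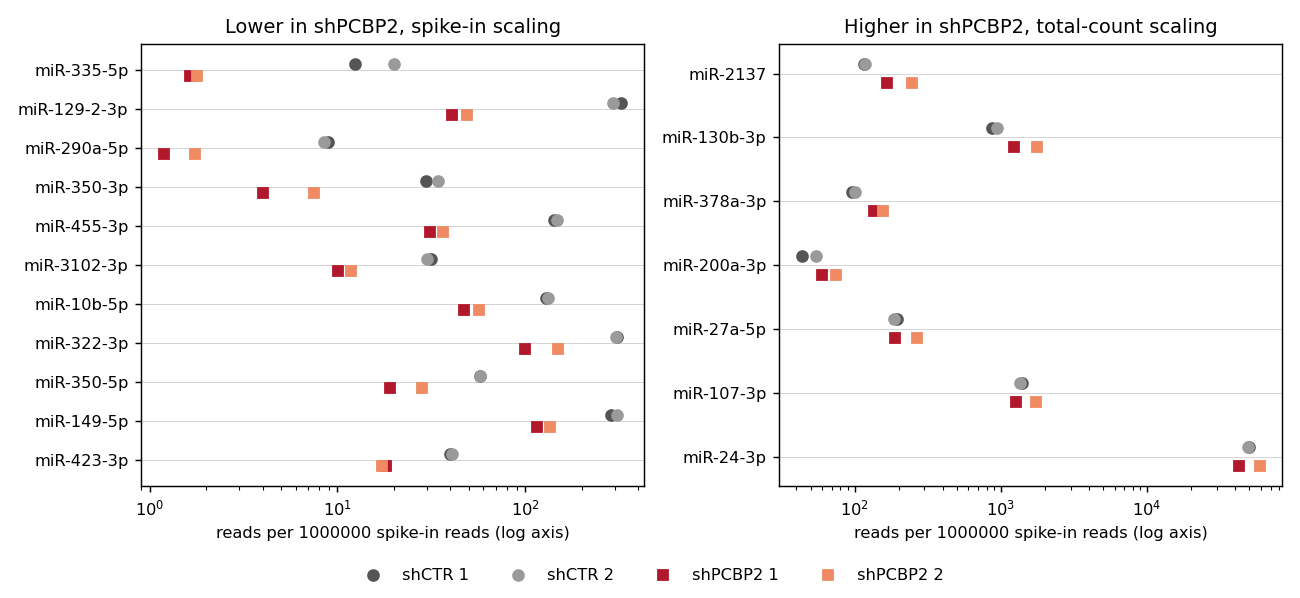
Levels in RPMS (reads per 1000000 spike-in reads) on a log axis, with circles for the shCTR replicates and squares for the shPCBP2 replicates. Left, the 11 miRNAs lower on the spike-in scale have both squares to the left of both circles; right, of the 7 miRNAs higher on the total scale, miR-24-3p, miR-107-3p and miR-27a-5p have overlapping groups on this scale.

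Abundant miRNAs joined the list on the total scale, where the median absolute log2 difference between the shPCBP2 replicates was 0.35 instead of 0.54. miR-181a-5p, known for its role in lymphocyte development but widely expressed, had 3876 and 3749 RPMS in shCTR against 1231 and 1614 in shPCBP2. Its share of mouse reads fell by 1.14 ± 0.10 (SE) on the log2 scale (adjusted p = 7.06e-05), while the spike-in test gave an adjusted p of 0.11. miR-342-3p, from an intron of Evl, had 936 and 824 against 303 and 350 (2.21-fold on the total scale, adjusted p = 0.00054, and adjusted p = 0.056 on the spike-in scale). The groups did not overlap for either miRNA. miR-28a-3p and miR-28a-5p, both from an intron of Lpp, fell 1.81-fold and 1.45-fold on the total scale (adjusted p = 0.00042 and 0.0060), and miR-151-3p fell 1.70-fold (adjusted p = 0.0015). miR-28a-5p missed the threshold without shPCBP2 replicate 1 (adjusted p = 0.079).

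Near-identical sister miRNAs were set side by side. miR-10a-5p and miR-10b-5p, and miR-196a-5p and miR-196b-5p, sit in Hox clusters and share their seeds, as the sequences show.
miR-10b-5p: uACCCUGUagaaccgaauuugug
miR-10a-5p: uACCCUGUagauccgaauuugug
miR-196a-5p: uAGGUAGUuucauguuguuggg
miR-196b-5p: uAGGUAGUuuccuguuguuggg
miR-10a-5p had 4424 and 4557 RPMS in shCTR against 3542 and 5402 in shPCBP2, with overlapping groups, whereas the much less read miR-10b-5p fell. miR-196a-5p had 528 and 708 against 206 and 261, and fell 2.17-fold on the total scale (adjusted p = 0.00089). miR-196b-5p had 5044 and 5832 against 3787 and 4513 and was not called on either scale. The difference between sisters was not tested, and reads that could fit either sister make the lower member of each pair uncertain.

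Families and genomic clusters were described by counts and medians, beside 50.3% of all tested miRNAs with both shPCBP2 levels below both shCTR levels on the spike-in scale and 39.0% on the total scale. Changes were negative for 364 and 308 of all 451 tested miRNAs on the spike-in and total scales, and 2.44% and 7.54% were called lower. The cluster of miR-322, miR-503, miR-351, miR-542 and miR-450 on the X chromosome, whose miR-322 and miR-503 are known to restrain the cell cycle, had 11 tested members. All 11 log2 changes were negative on both scales, with medians of -0.74 and -0.46, and 7 had no overlap between groups on either scale. One member (miR-322-3p) fell on the spike-in scale and 4 fell on the total scale (miR-322-3p, miR-322-5p, miR-503-5p and miR-351-5p). miR-322-5p had 4280 and 4322 RPMS in shCTR against 1630 and 2262 in shPCBP2, a 1.82-fold lower share (adjusted p = 0.00020). Summed over the list, the cluster held 0.864% and 0.840% of mouse reads in shCTR against 0.510% and 0.490% in shPCBP2. Without shPCBP2 replicate 2, miR-503-5p and miR-351-5p missed the threshold on the total scale (adjusted p up to 0.13 and 0.63), as did miR-351-5p without shPCBP2 replicate 1.

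The miR-181 family, grouped by the seed ACAUUCA of its 5p arms, had 8 tested members with medians of -0.81 and -0.53. Only 4 of the 8 have this seed, and the others are 3p arms of the same hairpins. Of these 3p arms, miR-181a-2-3p (0 and 35 counts in shCTR against 13 and 7 in shPCBP2) and miR-181d-3p (48 and 0 against 9 and 4) were scarce. miR-181a-5p and miR-181b-5p fell on the total scale, the latter from 3065 and 3604 RPMS to 1566 and 2113 (1.49-fold on the total scale, adjusted p = 0.0051, or 0.080 without shPCBP2 replicate 2). miR-181d-5p, which has the same seed, had 2697 and 2623 in shCTR against 1966 and 2853 in shPCBP2, with overlapping groups. The clusters of miR-193 and miR-365 had lower medians than this family, -1.03 and -0.76 over 6 tested members, with 0 called on either scale. Of all tested miRNAs, 2.44% were called lower on the spike-in scale, and 7.54% lower and 1.55% higher on the total scale. Beside these shares 0 of 6 is near the background and no result about the clusters. Some members of these clusters were scarce, such as miR-193b-5p with 26 and 28 counts in shCTR against 0 and 22 in shPCBP2.

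The miR-29 family, known for targeting collagen mRNAs, had 7 tested members with medians of -0.65 and -0.36. Its members miR-29a-3p and miR-29b-3p fell on the total scale (1.58-fold and 1.62-fold, adjusted p = 0.0018 and 0.026). The share of all tested miRNAs called lower on that scale was 7.54%. In the miR-99/100 and miR-125 families, 2 of 9 tested members fell on the total scale and medians were -0.59 and -0.32. These were miR-99b-5p (4279 and 3475 against 1570 and 1868 RPMS, 1.84-fold, adjusted p = 0.0022) and miR-125a-5p (848 and 1210 against 448 and 579, 1.64-fold, adjusted p = 0.015), neighbours on chromosome 17 within Spaca6. let-7e-5p, from the same stretch of chromosome 17, had overlapping groups at 10552 and 12596 against 7375 and 11131. Negative changes were common, at 364 of all 451 tested miRNAs on the spike-in scale and 308 on the total scale. All 6 tested members of the miR-106b~25 cluster, in an intron of Mcm7, had negative changes (medians -0.71 and -0.43), but miR-106b-3p alone passed the test, on the total scale (1.52-fold, adjusted p = 0.027), and it missed it without shPCBP2 replicate 1 or 2 (adjusted p up to 0.29).

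Several large families are given by their levels and medians, since with 2.44% (spike-in) or 7.54% and 1.55% (total, lower and higher) of all tested miRNAs called, few or no calls in lists of this size are near the background. The let-7 family, which took 24.1% and 25.7% of mouse reads in shCTR against 26.7% and 27.7% in shPCBP2, had 0 of 9 members called on either scale and medians of -0.24 and 0.02. The oncogenic miR-17~92 cluster had 0 of 10 members called, with medians of -0.54 and -0.26 that lay beside those of all tested miRNAs. In the family of miR-15, miR-16, miR-195 and miR-497 0 of 5 were called, with medians of -0.20 and 0.07. Of the miRNAs with the most reads, miR-16-5p had 61856 and 60877 RPMS in shCTR against 46543 and 70042 in shPCBP2, so that the shCTR levels lay between the shPCBP2 levels. miR-31-5p was lower in both shPCBP2 libraries (28851 and 41312 against 49738 and 47363), without passing the test. Across abundance, the median log2 change was -0.83 in the lowest quartile of tested miRNAs by mean count, -0.59 and -0.53 in the middle quartiles and -0.47 in the highest, and -0.10 over the 10 most abundant. On the total scale the corresponding medians were -0.56, -0.32, -0.26, -0.19 and 0.16. The 10 most abundant miRNAs took 51.6% and 50.1% of mouse reads in shCTR against 55.5% and 55.6% in shPCBP2.

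**Figure D4:**
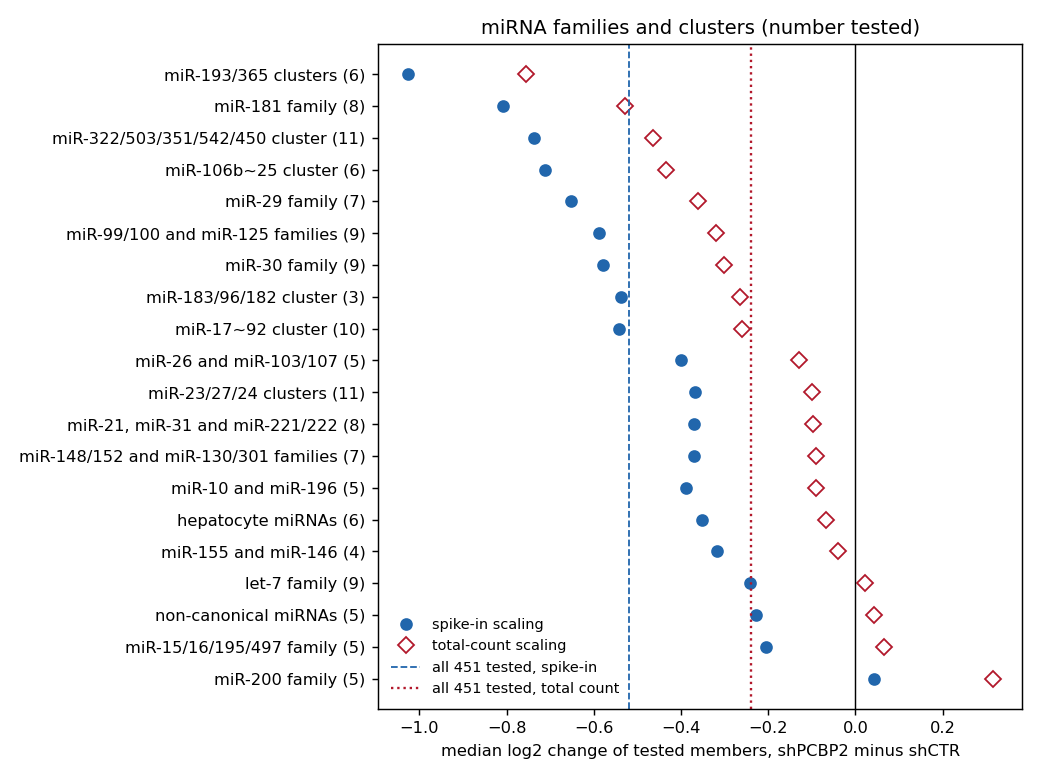
Median log2 change (shPCBP2 minus shCTR) of the tested members of each family or cluster, on the spike-in scale (filled circles) and the total scale (open diamonds), with the number tested in brackets. Dashed and dotted lines give the medians over all 451 tested miRNAs, -0.52 and -0.24. The clusters of miR-193 and miR-365, the miR-181 family and the miR-322 cluster are among those to their left. The let-7 and miR-200 families are among those to their right.

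The 7 rises on the total scale are given by size. miR-130b-3p, from a hairpin in an intron of 2610318N02Rik on chromosome 16, had 871 and 940 RPMS in shCTR against 1238 and 1762 in shPCBP2, and its share of mouse reads rose 2.01-fold (log2 1.01 ± 0.10 SE, adjusted p = 0.00014). miR-2137, which maps to an intron of Zfp185, had 116 and 118 against 166 and 245 and rose 2.13-fold (adjusted p = 0.00067). Neither had overlapping groups on the spike-in scale, although both missed the threshold there (adjusted p = 0.31 and 0.13). Relative to the spike-in, mmu-miR-130b-3p and mmu-miR-2137 passed without shPCBP2 replicate 1 (adjusted p = 0.014 and 0.022) and with DESeq2, and each passed under 1 other filter on low counts. These 2 kept their calls on the total scale with each library left out, and TMM and median-of-ratios scaling called them higher as well.

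The other rises were smaller. miR-378a-3p, linked to energy metabolism, had 96.2 and 101 RPMS in shCTR against 136 and 156 in shPCBP2, a 1.80-fold larger share (adjusted p = 0.0088). miR-200a-3p, of a family known to maintain epithelial character by repressing Zeb mRNAs, had 43.7 and 54.3 against 59.9 and 74.1 (1.67-fold, adjusted p = 0.047). Both were above shCTR on either scale. Another member, miR-200c-3p, from a different cluster, had 180 and 196 counts in shCTR against 42 and 70 in shPCBP2 without passing the test. miR-27a-5p, miR-107-3p and miR-24-3p rose 1.44-fold, 1.33-fold and 1.24-fold in share (adjusted p = 0.029, 0.029 and 0.036) but overlapped between groups on the spike-in scale. miR-107-3p is near-identical to miR-103-3p. Without shPCBP2 replicate 1, miR-378a-3p missed the threshold on the total scale (adjusted p = 0.060), and miR-200a-3p, miR-27a-5p, miR-107-3p and miR-24-3p missed it without either shPCBP2 replicate (adjusted p up to 0.27, 0.22, 0.27 and 0.63). The directions of miR-27a-5p, miR-107-3p and miR-24-3p turned negative relative to the spike-in when shPCBP2 replicate 2 was left out. Over all tested miRNAs, 3.55% had both shPCBP2 levels above both shCTR levels on the spike-in scale and 13.3% on the total scale.

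Both arms of a hairpin were compared where both were tested, a ratio that needs no scaling. Of 113 such hairpins, 1 changed its 5p/3p ratio at an adjusted p under 0.05 (limma), and 16 had an unadjusted p under 0.05. The hairpin was miR-34a, a target of p53. Its 5p arm had 36122 and 31438 counts in shCTR against 31555 and 41156 in shPCBP2, while its 3p arm had 0 and 0 against 15 and 36. The 3p arm passed the filter on low counts only through shPCBP2, the group where it is high, so it had to differ. The size of the ratio change is set by the pseudocount. The call (adjusted p = 0.033) was lost with a pseudocount of 5, without the trend, under the replicate block, and without either shPCBP2 replicate, where 0 hairpins passed. The test called 9 and 4 hairpins lower and 4 and 4 higher without shCTR replicate 1 or 2. Over all 113 hairpins, which share the same libraries, the Pearson correlation of the changes of the arms was 0.15, and 55 had both arms on the same side of the median. Among the 58 with both arms at a mean of 100 counts or more it was 0.36, and 32 had both arms on the same side. The hairpins with both arms called lower on the total scale were miR-322, miR-28a, miR-350 and, through its shared 5p arm, miR-129-2.

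**Figure D5:**
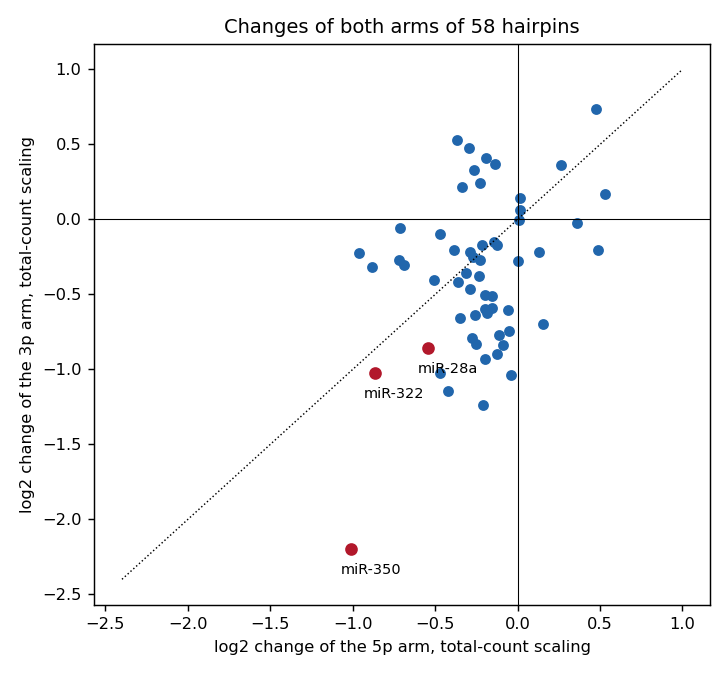
Log2 changes (shPCBP2 minus shCTR, total scale) of the 5p arm and the 3p arm of 58 hairpins with a mean of at least 100 counts in both arms. The dotted line marks equal change, and miR-350, miR-322 and miR-28a (red) have both arms called lower.

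The miRNAs that the study selected as carrying a cell retention (CELL) and a vesicle loading (hEXO) motif were not called in cells on either scale. Of 10 on that list, which the study chose partly on these samples, 9 were tested, with 0 called and medians of -0.52 and -0.23, beside -0.52 and -0.24 over all tested miRNAs. With 2.44% and 7.54% of all tested miRNAs called lower on the respective scales, 0 of 9 is near the background and no result about this list. miR-155-5p had 522 and 657 RPMS in shCTR against 366 and 441 in shPCBP2, and miR-192-5p had 1151 and 843 against 622 and 773. Both were lower in each shPCBP2 library relative to the spike-in and overlapped on the total scale. miR-155-3p was scarce, at 11 and 0 counts in shCTR against 7 and 26 in shPCBP2. miR-214-3p was at 32 and 18 counts in shCTR against 0 in both shPCBP2 libraries. Its mean shCTR level was 8.69-fold that of 3 counts in each shPCBP2 library, without passing the test (adjusted p = 0.30). It reached a mean of 10 counts only through shCTR, the group where it is high. Likewise, 0 of the 4 single-motif controls of the study were called.

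Motifs were searched in the printed strand of the 399 tested miRNAs with a sequence. AUUA or AUUG, the core of the CELL motif, occurred in 59 of them (14.8%, against 8.87% of all mature sequences in the reference), and 4 of these 59 fell on the total scale, or 6.78%, against 29 of 340 without it. GGCU, 1 of the sequences that the degenerate hEXO motif allows, occurred in 56, of which 5 fell and 3 rose on the total scale. The study scanned for the whole hEXO motif, and most miRNAs it selected lack GGCU, so these counts do not describe its hEXO miRNAs. The share that fell was 8.93% with GGCU and 8.16% without, and the share that rose was 5.36% with it (miR-24-3p, miR-27a-5p and miR-107-3p) and 0.875% without. CCC, a run of cytosines, occurred in 78 (19.5% of those tested and 23.3% of all mature sequences). On the spike-in scale 6 of these 78 fell (7.69%) against 5 of 321 without CCC (1.56%), and on the total scale 11 (14.1%) against 22 (6.85%). The 6 are miR-129-2-3p, miR-149-5p, miR-3102-3p, miR-10b-5p, miR-350-3p and miR-423-3p, and CCC in them is a match of letters, not measured binding.

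The labelled cell type was checked with hepatocyte miRNAs. miR-194-5p, a liver and gut miRNA, was abundant (342726 and 280114 counts in shCTR, 218474 and 289654 in shPCBP2), as was miR-192-5p. miR-122-5p, the defining miRNA of adult hepatocytes, had 455 and 485 counts in shCTR against 356 and 469 in shPCBP2, and miR-122-3p was at 0 in all cell libraries. miR-101b-3p had 3313 and 3258 counts in shCTR against 2637 and 2878 in shPCBP2. The rest of the list was scarce. miR-101a-3p had 82 and 1 counts against 39 and 87, and miR-148a-3p 75 and 42 against 7 and 32. miR-215-5p and miR-802-5p had at most 8 counts in any cell library. Of the 6 tested hepatocyte miRNAs 0 were called. Over all tested miRNAs 2.44% were called lower on the spike-in scale, and 7.54% lower and 1.55% higher on the total scale. At these shares 0 of 6 is near the background and no result about hepatocyte miRNAs. Markers of other cells ranged from 0 reads to counts above those of miR-122-5p in every cell library, as for miR-126a-3p, miR-206-3p and miR-129-5p. The erythroid miRNAs miR-451a, miR-144-3p and miR-144-5p and the leukocyte miRNAs miR-142a-3p and miR-142a-5p had 0 reads, and the summed level of the leukocyte list was 5.05 and 2.61 RPMS in shCTR against 0.907 and 0.786 in shPCBP2. The summed level of the mesenchymal list was 21.8 and 16.5 RPMS in shCTR against 6.63 and 13.4 in shPCBP2, and that of the erythroid list, held up by miR-486a-5p and miR-486b-5p, was 22.6 and 19.7 against 7.65 and 9.54. The endothelial miR-126a-3p had 2108 and 2218 counts in shCTR against 1524 and 1829 in shPCBP2. The muscle list stood at 866 and 1112 against 696 and 1088, nearly all of it miR-206-3p. The list of neural and endocrine miRNAs was lower in shPCBP2 (1895 and 2454 against 446 and 634), nearly all of it miR-129-5p. The part of other cells in these differences was not tested.

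miRNAs with and without EV reads were also described apart. Of the 231 tested miRNAs without EV reads, 2 fell on the spike-in scale (0.866%) and 3 fell and 3 rose on the total scale. Of the 220 with EV reads, 9 fell on the spike-in scale (4.09%), and 31 fell and 4 rose on the total scale. The median log2 changes of both sets were close, -0.55 and -0.50 on the spike-in scale and -0.28 and -0.22 on the total scale. The sets differed in depth, with a median mean count of 41.25 without and 3014 with EV reads.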

How the data were processed

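The authors trimmed the small RNA reads, ran mirPRo with NovoAlign on the forward reads against miRBase precursors plus the spike-in, and deposited raw counts per mature miRNA, of which the largest carry only 6 significant digits. Cell libraries held 26391248 to 30553773 counts, spike-in included. The 5p arm of the spike-in had 0 reads. EV libraries entered no comparison other than as named. Groups came from the titles. Titles and descriptions number the second shPCBP2 replicate differently, and those in the titles were kept.

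Tested were mouse miRNAs with a mean of at least 10 counts over the 4 cell libraries. edgeR 4.0.16 (estimateDisp, glmQLFit, glmQLFTest, R 4.3.3) was fitted to the 2 groups with library sizes proportional to the cel-miR-39-3p count or, as a check, to the total mouse count. Calls had a Benjamini-Hochberg adjusted p under 0.05 over all 451. SEs were derived from the F statistic. Arm ratios, log2((5p + 0.5)/(3p + 0.5)), were tested with limma 3.58.1. p-values measure only the spread between these samples. A count of 3 per library served as floor, and floors cover counting error only, since reads that carry no molecular identifier cannot be counted as separate molecules. Positions and hosts came from RefSeq and GENCODE annotation of GRCm38.p6. A miRNA name covers all its loci, and near-identical miRNAs can share reads.

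The members, lists and rules were chosen with earlier results of these data known. The miRNAs named were drawn from the top 10 by p in either direction on each scale, the 10 most abundant, the study's lists, the most abundant and most changed members of each list, called hairpins and miRNAs at the floor in 1 group. The other miRNAs called on the total scale, sister miRNAs, let-7e-5p and other single members of a list were chosen after their values were seen. In simulated data for the spike-in comparison of 451 miRNAs, with the fitted dispersion, 46, 112 and 142 of 200 were recovered at log2 changes of 1, 2 and 3, with 1, 1 and 0 false calls among 251 unchanged. With a dispersion 10 times smaller, these were 144, 183 and 200 recovered and 5, 5 and 3 false calls. For the arm ratio of 113 hairpins, 4 and 13 of 20 were recovered at log2 2 and 4. Alternatives were TMM and median-of-ratios factors, other filters, DESeq2 1.42.0, all 8 libraries in the fit, the legacy quasi-dispersion, a replicate block, and each library left out.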

Additional observations from a re-analysis of the deposited data

How the results depend on the processing

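Of 11 lower calls on the spike-in scale, counts changed to 34 with the total count, 17 with TMM factors, 43 when at least 10 counts were required in each cell library, 52 with the study's filter (reads in 2 or more libraries of cells and of EVs alike), 41 with DESeq2 and 25 with the legacy quasi-dispersion. They were 16 with median-of-ratios factors, 9 with no filter and 14 with all 8 libraries. Higher calls changed from 0 to 7 with the total count, 13 with TMM, 15 with median of ratios, 1 with at least 10 counts in each library, 1 with the study's filter and 2 with DESeq2. With each library left out in turn, lower calls ranged from 6 to 97 and higher calls from 0 to 2 on the spike-in scale. On the total scale lower calls were 72 and 67 without shCTR replicate 1 or 2 and 24 and 17 without shPCBP2 replicate 1 or 2, and higher calls 29, 12, 2 and 3. The cause was not tested. Same-numbered replicates did not deviate together (correlation 0.027), so the numbers are not taken to pair the samples. A replicate block gave 12 lower and 0 higher calls, and the block with the total count 41 lower and 12 higher. The single arm ratio call became 0 with a pseudocount of 5, with at least 100 counts in both arms, without the trend and under the replicate block, and ranged from 0 to 9 lower and 0 to 4 higher with a library left out. With a library left out, the spike-in log2 change ranged from -0.12 to 0.34 for miR-107-3p, from -0.027 to 0.49 for miR-27a-5p and from -0.22 to 0.25 for miR-24-3p, each negative without shPCBP2 replicate 2. The total per spike-in read kept its direction in every alternative, from -0.56 to -0.04 with a library left out. In the lowest quartile of mean count, 0 of 113 tested miRNAs passed on either scale, and the part of depth in this was not tested.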

Other observations

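Scarce miRNAs at the floor in 1 group included miR-34a-3p, miR-214-3p, miR-335-3p and miR-129-1-3p, given above. With at most 3 counts in both libraries of a group and a mean of 10 or more in the other, 31 miRNAs were at the floor in shPCBP2 and 27 in shCTR, all of them chosen by the group where they are high. Of those at the floor in shPCBP2, miR-1960 had 14 and 43 counts in shCTR and miR-3108-3p had 28 and 21, against 0 in each shPCBP2 library. Their mean shCTR levels were 10.4-fold and 8.59-fold that of 3 counts in each shPCBP2 library. miR-145a-5p, known from smooth muscle, had 10 and 15 counts against 0 and 0. Of those at the floor in shCTR, miR-1932 had 41 and 14 counts and miR-7669-3p had 21 and 24 in shPCBP2 against 0 in each shCTR library. Their mean shPCBP2 levels were 8.66-fold and 7.07-fold that of 3 counts in each shCTR library. None passed the test on either scale (edgeR's adjusted p of 0.16 or more for those tested).

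The placental and brain-rich Dlk1-Dio3 cluster was nearly silent, with 2 of 47 listed members tested and 0 called. With 2.44% (spike-in scale) and 7.54% (total scale) of all tested miRNAs called lower, 0 of 2 is near the background. Genomic clusters in which hairpins lie within 10 kb on 1 strand, with 3 or more tested members placed there alone, numbered 21. By the median on the total scale, the let-7b and let-7c-2 cluster on chromosome 15 was lowest (-0.98 over 3 members, of which let-7c-2-3p has the same counts in every cell library as let-7a-1-3p, and let-7b-5p alone was positive). The X-linked miR-322 cluster (-0.44 over 10 members), the miR-106b cluster (-0.43 over 6) and another X-linked cluster in Clcn5 with miR-362, miR-500, miR-501 and miR-532 (-0.41 over 8, with miR-362-5p and miR-501-3p called lower) came next, and the miR-200b cluster on chromosome 4 at the upper end (0.47 over 5, with miR-200a-3p called higher).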
